A study of Ovis aries with 9 samples.

Results

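The genes described here are the sheep genes for the semaphorins, the plexins and neuropilins that receive them, the ephrins, and the EPH receptors that receive ephrins. They were chosen by name, as every gene with a RefSeq mRNA whose symbol begins with SEMA, PLXN, EFNA or EFNB, or with EPHA or EPHB and a number, together with *NRP1* and *NRP2*. The rule found 53 genes among 21284 with RefSeq mRNAs, carried by 216 mRNA transcripts. They are 28 ligands (20 semaphorins, 5 A-type ephrins and 3 B-type ephrins) and 25 receptors (9 plexins, 2 neuropilins, 9 EPHA and 5 EPHB receptors). The tissue was the hypothalamus of healthy Dolang ewes kept under the same conditions, with 3 ewes and 3 libraries at each stage. Prepuberty ewes (120 to 121 days of age) refused mounting, puberty ewes (130 to 131 days) were taken at their first signs of estrus, and postpuberty ewes (150 to 151 days) were calm again. Age and stage therefore changed together and cannot be told apart. No treatment is described other than the pentobarbital given before dissection. RNA was selected on poly-T beads and sequenced in pairs, and expression is in FPKM, a fragment count scaled for transcript length and library size, summed here over the mRNA transcripts of each gene. The stages were compared to ask whether guidance genes differed as ewes passed through the first estrus.

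Semaphorins and ephrins are cell surface or secreted cues that steer growing axons, migrating neurons and vessels, and that shape synapses and myelin in the adult brain. Class 3 semaphorins are secreted and mostly bind a neuropilin that pairs with an A-type plexin, whereas the membrane-bound classes bind plexins directly. Ephrins are held on the membrane, A-type by a lipid anchor and B-type by a transmembrane stretch, and signal in both directions with EPH receptor tyrosine kinases on the neighbouring cell. In the hypothalamus these families are known for guiding gonadotropin-releasing hormone (GnRH) neurons from the nose into the brain and for the reshaping of nerve endings in the median eminence.

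Library totals were 359588 to 398109 FPKM in 8 libraries and 599726 in puberty replicate 2. That library listed 15577 genes above 0, against 17180 to 17763 elsewhere, and 32 genes with at least 10 FPKM in every other library stood at 0 there. It is written below as puberty 2, and the log2 fold changes of members that involve puberty are given with and without it. It also had 624 FPKM of *CLDN5*, an endothelial junction gene, against 54.7 to 114 in the other libraries. The other 6 endothelial markers did not move together there, since *PECAM1* (2.94 FPKM), *CDH5* (1.91), *FLT1* (3.80) and *TEK* (1.67) were at their lowest of the 9 libraries and *VWF* (20.0) and *ESAM* (28.3) at their highest. Of 15 markers of the labelled tissue, 8 stayed under 2 FPKM in all 9 libraries (*GNRH1*, *NKX2-1*, *SIM1*, *GHRH*, *AGRP*, *KISS1*, *PMCH* and *HCRT*). *GNRH1* was listed at 0 in all 9 libraries, *NKX2-1* reached at most 0.262 FPKM, and *OXT* lay between 0.319 and 4.81 and *AVP* between 0.551 and 3.15 in the 8 libraries other than puberty 2. In the same libraries *SST* lay between 4.27 and 107 FPKM, *CRH* between 0.392 and 118, *TRH* between 0.824 and 36.8, *NPY* between 1.78 and 22.7 and *POMC* between 2.09 and 17.4. All 15, GnRH and other releasing hormones and peptides with 2 transcription factors, summed to 29.8 to 171 FPKM in those libraries. The summed level of 6 neuron markers was 621 FPKM in prepuberty 1 and 423 in postpuberty 1, against 1154 to 1748 in the other libraries apart from puberty 2, where it was 308. *SYT1* alone departed from this, at 52.8 FPKM in postpuberty 1 against 34.1 in prepuberty 3, 35.6 in puberty 1 and 32.2 in postpuberty 3. The other neuron markers were lowest of the 8 libraries in prepuberty 1 and postpuberty 1. The sum of 5 leptomeningeal markers was 74.3 to 173 FPKM in prepuberty 1, puberty 3, postpuberty 1 and postpuberty 3, and 26.7 to 28.6 in the other libraries apart from puberty 2, at 15.0. In such bulk RNA, fewer cells of a type and less RNA in each cell cannot be told apart.

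Guidance genes were expressed at low to moderate levels. Of the 53 genes, 5 had a mean of at least 10 FPKM over the 8 libraries other than puberty 2, 37 lay between 1 and 10, and 11 lay under 1. The 5 were *SEMA7A*, *SEMA4D*, *SEMA3G*, *PLXNB2* and *SEMA6A*, so 4 of the 5 highest genes were ligands. The median level within a class was 2.21 FPKM for semaphorins, 4.08 for plexins, 3.04 for A-type ephrins, 3.39 for B-type ephrins, 1.37 for EPHA receptors and 2.65 for EPHB receptors. A few genes therefore set the semaphorin level, and *SEMA7A*, *SEMA3G* and *SEMA4D* together made up 58.8% of the semaphorin sum.

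**Figure D1:**
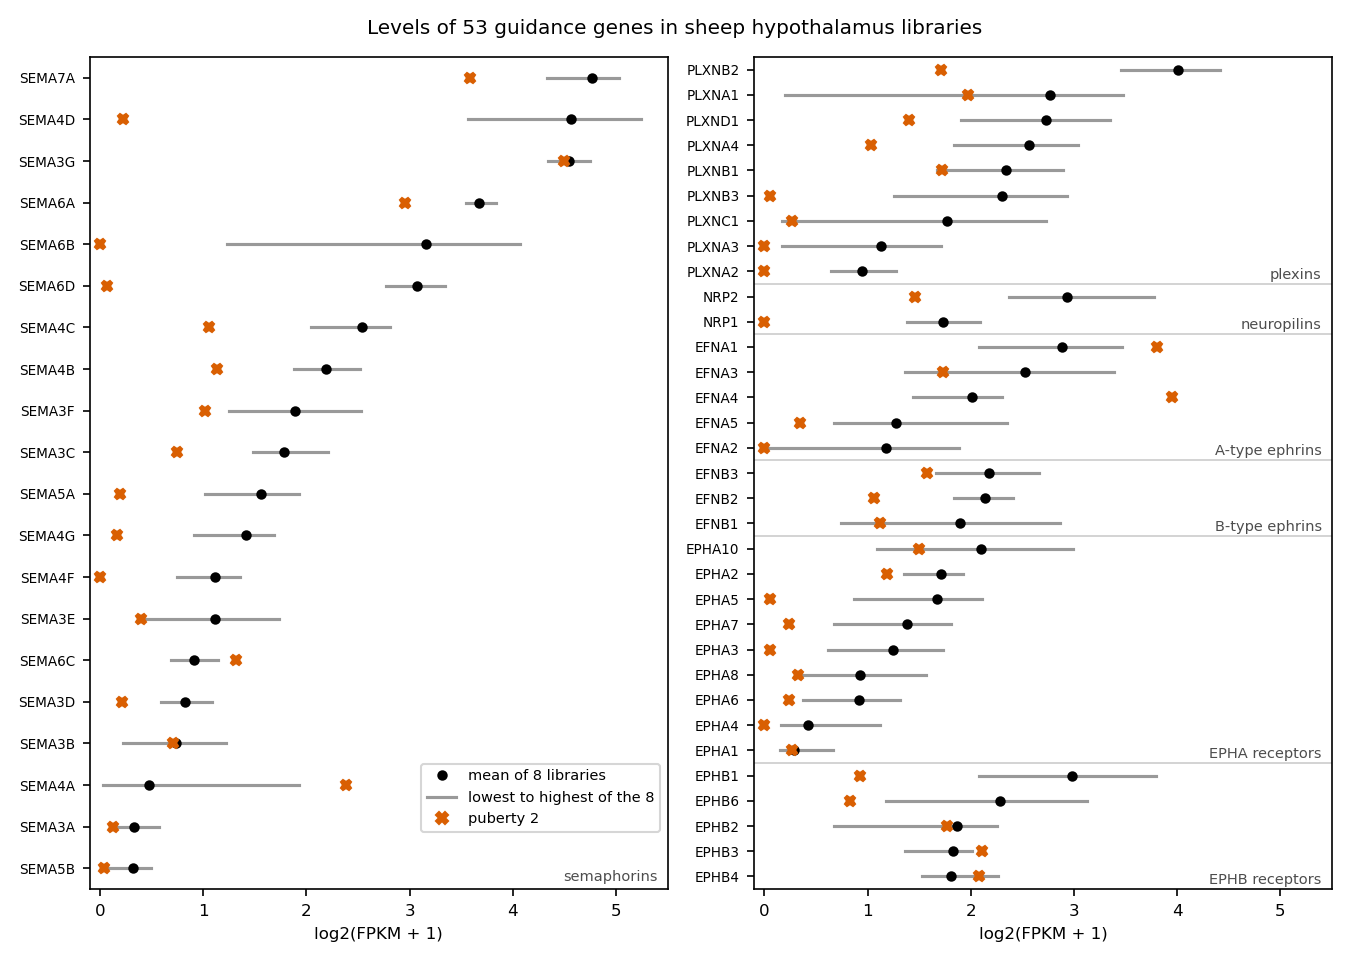
Level of each of the 53 guidance genes, with log2(FPKM + 1) on the horizontal axis and genes grouped by class. Black points are means of 8 libraries, grey lines run from the lowest to the highest of the 8, and orange crosses are puberty 2, which was the lowest of the 9 libraries for 35 of the 53 genes.

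Among the semaphorins, *SEMA7A* (chromosome 18, positions 31893845 to 31919462, ARS-UI_Ramb_v3.0) was the most abundant member. It encodes the lipid-anchored semaphorin that binds PLXNC1 and beta1 integrin. In replicate order, its level was 19.2, 22.1 and 27.7 FPKM at prepuberty, 28.4, 11.0 and 31.7 at puberty and 25.6, 27.5 and 28.0 at postpuberty. The lowest value was puberty 2, and the 2 highest were the other puberty libraries. *SEMA3G* (chromosome 19, positions 48524162 to 48535352), a secreted ligand of NRP2 made largely by vessels, stood at 21.9, 19.2 and 25.9 FPKM at prepuberty, 21.9, 21.6 and 24.0 at puberty and 21.3, 20.5 and 24.4 at postpuberty. Its 8 libraries spanned 1.35-fold, and puberty 2 lay inside that span, as it did in 13 of the 53 genes. *SEMA6A* (chromosome 5, positions 35030765 to 35162440), a transmembrane ligand of PLXNA2 and PLXNA4, was the steadiest member over the 8 libraries, with a span of 1.24-fold. Its values were 11.0, 11.2 and 13.3 FPKM at prepuberty, 10.7, 6.76 and 12.3 at puberty and 12.9, 10.9 and 11.6 at postpuberty. For all tested genes the median span over the 8 libraries was 2.16-fold, and for the 50 tested members it was 3.23-fold.

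*SEMA4D* (chromosome 2, positions 24154496 to 24280220) encodes the transmembrane ligand of PLXNB1 and is known from oligodendrocytes and lymphocytes. Its level was 36.8, 10.8 and 15.2 FPKM at prepuberty, 14.6, 0.172 and 26.2 at puberty and 27.4, 32.9 and 16.8 at postpuberty. Each stage held values on both sides of 20, and puberty 2 was nearly at 0. The gene is listed with 7 mRNA transcripts, and they did not share its level in the same way across libraries. The transcript XM_004004061.5 carried 30.2 FPKM in prepuberty 1 but 0.0400 in prepuberty 2, where XM_027964183.2 carried 10.4. The split between transcripts is an estimate from shared reads, so the sum is described here.

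The secreted class 3 semaphorins other than *SEMA3G* were low. *SEMA3A*, a ligand of NRP1 that helps GnRH neurons to reach the brain, had 0.163, 0.175 and 0.325 FPKM at prepuberty, 0.488, 0.0913 and 0.172 at puberty and 0.157, 0.104 and 0.448 at postpuberty. It was under 0.5 in every library and was not tested. *SEMA3F*, a ligand of NRP2, had 1.88, 4.77 and 1.37 FPKM at prepuberty, 2.1, 1.03 and 2.42 at puberty and 2.54, 3.91 and 2.58 at postpuberty. The postpuberty libraries all lay above the puberty ones, but prepuberty held both the highest value and 2 values below all 3 postpuberty libraries. *SEMA3E*, which binds PLXND1 without a neuropilin, was at 0.925, 0.806 and 0.515 FPKM at prepuberty, 1.56, 0.315 and 1.63 at puberty and 0.343, 2.32 and 1.26 at postpuberty. Its lowest and highest values of the 8 libraries were both in postpuberty, so that stage overlapped with each of the others, whereas puberty 1 and puberty 3 lay above all prepuberty libraries. The genes *SEMA3A*, *SEMA3C*, *SEMA3D* and *SEMA3E* lie on chromosome 4 and *SEMA3B*, *SEMA3F* and *SEMA3G* on chromosome 19, yet *SEMA3G* was at 22.4 FPKM on average and *SEMA3B* at 0.666. The sum over class 3 was 27.5 to 32.6 FPKM in the 8 libraries and 24.5 in puberty 2, and *SEMA3G* made up most of it. The sum over the transmembrane classes 4 to 6 ranged from 48.6 to 76.1 FPKM and was 15.3 in puberty 2.

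Among the receptors, *PLXNB2* (chromosome 3, positions 225561535 to 225588986), a receptor for class 4 semaphorins, was the most abundant and made up 34.2% of the plexin sum. It stood at 19.2, 13.0 and 11.8 FPKM at prepuberty, 12.8, 2.27 and 18.5 at puberty and 20.4, 9.96 and 15.3 at postpuberty. Its 4 highest libraries were those with the most leptomeningeal marker RNA, and the part of those cells in its level was not tested. *PLXND1*, the vessel plexin that binds SEMA3E, was at 7.46, 3.93 and 5.41 FPKM at prepuberty, 4.67, 1.65 and 6.18 at puberty and 9.21, 2.75 and 5.31 at postpuberty. Its 2 highest libraries were prepuberty 1 and postpuberty 1, which were also the 2 lowest of the 8 for neuron markers. *PLXNB1*, the main receptor of SEMA4D, was at 2.2, 3.01 and 4.68 FPKM at prepuberty, 5.36, 2.3 and 4.28 at puberty and 6.44, 3.14 and 3.5 at postpuberty, with all stages overlapping. *PLXNC1*, the receptor of SEMA7A, was at 2.22, 2.76 and 0.126 FPKM at prepuberty, 1.76, 0.205 and 2.18 at puberty and 2.65, 1.9 and 5.64 at postpuberty. Prepuberty 3 and puberty 2 were near 0 and postpuberty 3 was highest, while the other 6 libraries lay close together.

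The plexins that pair with neuropilins differed in their library pattern. *PLXNA4*, a receptor of neurons, was at 2.58, 7.22 and 4.77 FPKM at prepuberty, 5.98, 1.05 and 5.94 at puberty and 3.16, 5.4 and 4.24 at postpuberty, and was lowest of the 8 in the libraries with the least neuron marker RNA. *PLXNA2*, which also binds SEMA6A, was at 0.842, 1.41 and 1.28 FPKM at prepuberty, 0.935, 0 and 0.798 at puberty and 0.562, 0.678 and 0.921 at postpuberty. The stages overlapped for both genes with all 9 libraries. *NRP1*, the partner of SEMA3A and of vascular endothelial growth factor, was at 3.27, 2.48 and 1.78 FPKM at prepuberty, 1.6, 0 and 2.05 at puberty and 2.49, 1.61 and 3.2 at postpuberty. *NRP2*, the partner of SEMA3F and SEMA3G, was at 5.43, 12.7 and 5.83 FPKM at prepuberty, 6.38, 1.75 and 5.6 at puberty and 4.16, 5.78 and 7.13 at postpuberty. Both neuropilins overlapped between stages, and *NRP1* was listed at 0 in puberty 2. Outside puberty 2, *NRP1* was at 1.6 FPKM or more in every library while its ligand *SEMA3A* stayed under 0.5.

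A-type ephrins were led by *EFNA1* (chromosome 1, positions 105339164 to 105345749), a ligand common in vessels. Its level was 9.81, 7.06 and 3.46 FPKM at prepuberty, 3.24, 13.0 and 3.91 at puberty and 10.1, 8.29 and 5.27 at postpuberty. Puberty held both the highest value, puberty 2, and the lowest. *EFNA3* was at 1.57, 9.48 and 3.68 FPKM at prepuberty, 5.88, 2.32 and 4.19 at puberty and 2.08, 6.44 and 4.81 at postpuberty, with its 2 lowest values in prepuberty 1 and postpuberty 1, the libraries with the least neuron marker RNA apart from puberty 2. *EFNA4* was at 3.41, 1.71 and 3.51 FPKM at prepuberty, 2.58, 14.5 and 3.04 at puberty and 3.93, 2.94 and 3.15 at postpuberty, and puberty 2 stood far above the rest. *EFNA1*, *EFNA3* and *EFNA4* are neighbours on chromosome 1, between positions 105277920 and 105345749, and each had its own library pattern. *EFNA5*, an axon repellent of the visual and cortical maps, was at 0.883, 4.09 and 0.6 FPKM at prepuberty, 0.792, 0.268 and 1.42 at puberty and 1.08, 1.32 and 1.23 at postpuberty. *EFNA2*, a related ligand, was at 1.15, 2.69 and 1.39 FPKM at prepuberty, 1.24, 0 and 0.41 at puberty and 1.61, 1.55 and 0.0217 at postpuberty. For *EFNA5*, prepuberty 2 was the highest library and puberty 2 the lowest, and the same held for *EFNA2*.

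The B-type ephrins lay within a narrow range of means, 2.72 to 3.53 FPKM. *EFNB2*, the arterial ligand of EPHB4, was at 3.74, 3.94 and 3.04 FPKM at prepuberty, 2.96, 1.09 and 3.2 at puberty and 4.32, 2.57 and 3.39 at postpuberty. *EFNB3*, a midline barrier to axons, was at 2.84, 4.74 and 2.27 FPKM at prepuberty, 4.07, 1.98 and 3.64 at puberty and 3.17, 2.17 and 5.32 at postpuberty. *EFNB1* (chromosome X, positions 61736605 to 61749472) varied most, at 6.29, 1.14 and 1.16 FPKM at prepuberty, 0.673, 1.18 and 3.26 at puberty and 4.67, 0.943 and 3.64 at postpuberty. The 4 libraries high in *EFNB1* were the 4 with the most leptomeningeal marker RNA, a pattern that it shared with *PLXNB2* and *EPHA3*. Over the 8 libraries these were 3 of 50 tested members (6%), beside 11.3% of all genes tested, so the pattern is not particular to guidance genes.

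Summed over mRNAs, EPHB receptors stood above EPHA receptors in all 9 libraries, at 14.3 to 25.9 FPKM against 8.75 to 18.7 in the 8 libraries other than puberty 2. This held in 4 of the 9 libraries when the noncoding *EPHA4* transcripts described below were added to the EPHA sum. *EPHB1* (chromosome 1, positions 254738377 to 255195394) led them, at 3.24, 12.9 and 4.07 FPKM at prepuberty, 4.81, 0.901 and 6.29 at puberty and 9.63, 6.28 and 8.09 at postpuberty. *EPHB6*, whose kinase domain is inactive, was at 3.87, 7.71 and 2.87 FPKM at prepuberty, 2.38, 0.775 and 2.95 at puberty and 1.27, 5.6 and 4.39 at postpuberty. *EPHB4*, the venous receptor of EFNB2, had 3.09, 1.88 and 2.28 FPKM at prepuberty, 2.08, 3.21 and 3.17 at puberty and 3.79, 1.93 and 1.88 at postpuberty. Prepuberty 2 was the highest library for *EPHB1* and *EPHB6*, and postpuberty 1 for *EPHB4*. Of the EPHA receptors, *EPHA10*, which also lacks kinase activity, was highest at 1.13, 6.97 and 2.64 FPKM at prepuberty, 3.53, 1.82 and 2.96 at puberty and 1.92, 4.6 and 2.64 at postpuberty. *EPHA2* was at 2.8, 1.58 and 2.56 FPKM at prepuberty, 1.97, 1.27 and 2.61 at puberty and 2.27, 1.55 and 2.79 at postpuberty. *EPHA5*, a receptor of neurons, had 0.824, 2.91 and 1.73 FPKM at prepuberty, 2.12, 0.0406 and 3.16 at puberty and 1.43, 3.31 and 1.98 at postpuberty. *EPHA10* and *EPHA5* had their 2 lowest values of the 8 libraries in prepuberty 1 and postpuberty 1, whereas *EPHA2* did not.

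*EPHA4* (chromosome 2, positions 223493130 to 223670244), the receptor that binds ephrins of both types, needs separate mention. Its 2 mRNA transcripts summed to 0.116, 1.17 and 0.266 FPKM at prepuberty, 0.366, 0 and 0.286 at puberty and 0.188, 0.228 and 0.124 at postpuberty. One of the transcripts that RefSeq annotates as noncoding at the same gene, XR_009599650.1, had 2.65, 10.7 and 5.09 FPKM at prepuberty, 7.0, 0.987 and 5.22 at puberty and 3.76, 9.48 and 4.38 at postpuberty. Over the 8 libraries the mean was 6.03 FPKM for that transcript and 0.343 for the mRNAs. Most *EPHA4* signal was therefore assigned to a transcript outside the mRNA sums, and the level of *EPHA4* given by its mRNAs is uncertain. By its mRNAs the gene passed the filter of the tests below only through prepuberty. The 19 members not described gene by gene had means from 0.225 to 7.92 FPKM over the 8 libraries, and 12 of them reached 1. They are 12 semaphorins, 5 EPHA receptors, *EPHB3* and *PLXNA3*.

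Ligands exceeded receptors in the semaphorin system in all 9 libraries, and in the ephrin system they were below them in 7 of 9. The semaphorin sum was 121 ± 12.1 FPKM (SD, n = 8) without puberty 2, against 52.9 ± 6.41 for plexins and neuropilins together. By stage, the ratio of the first to the second was 2.21 ± 0.346 (SD, n = 3) in prepuberty, 3.04 ± 1.05 (n = 3) in puberty and 2.34 ± 0.551 (n = 3) in postpuberty. In single libraries it was 2.27, 1.84 and 2.53 at prepuberty, 2.10, 4.17 and 2.85 at puberty and 2.06, 2.97 and 1.98 at postpuberty. Semaphorins were above their receptors in all 9 libraries, the stages overlapped, and the puberty mean without puberty 2 was 2.47. The ephrin sum was 26.5 ± 5.23 FPKM (SD, n = 8) against 31.6 ± 6.71 for EPH receptors. The ratio was 1.25, 0.782 and 0.770 at prepuberty, 0.812, 2.35 and 0.691 at puberty and 0.959, 0.757 and 0.819 at postpuberty. Ephrins were below EPH receptors in 7 of the 9 libraries, the exceptions being prepuberty 1 and puberty 2. Stage means were 0.933 ± 0.272 (SD, n = 3), 1.28 ± 0.923 (n = 3) and 0.845 ± 0.103 (n = 3), and the puberty mean was 0.751 without puberty 2. These ratios compare mRNA sums, without the noncoding *EPHA4* transcripts, and the sum of a class follows its most abundant members.

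**Figure D2:**
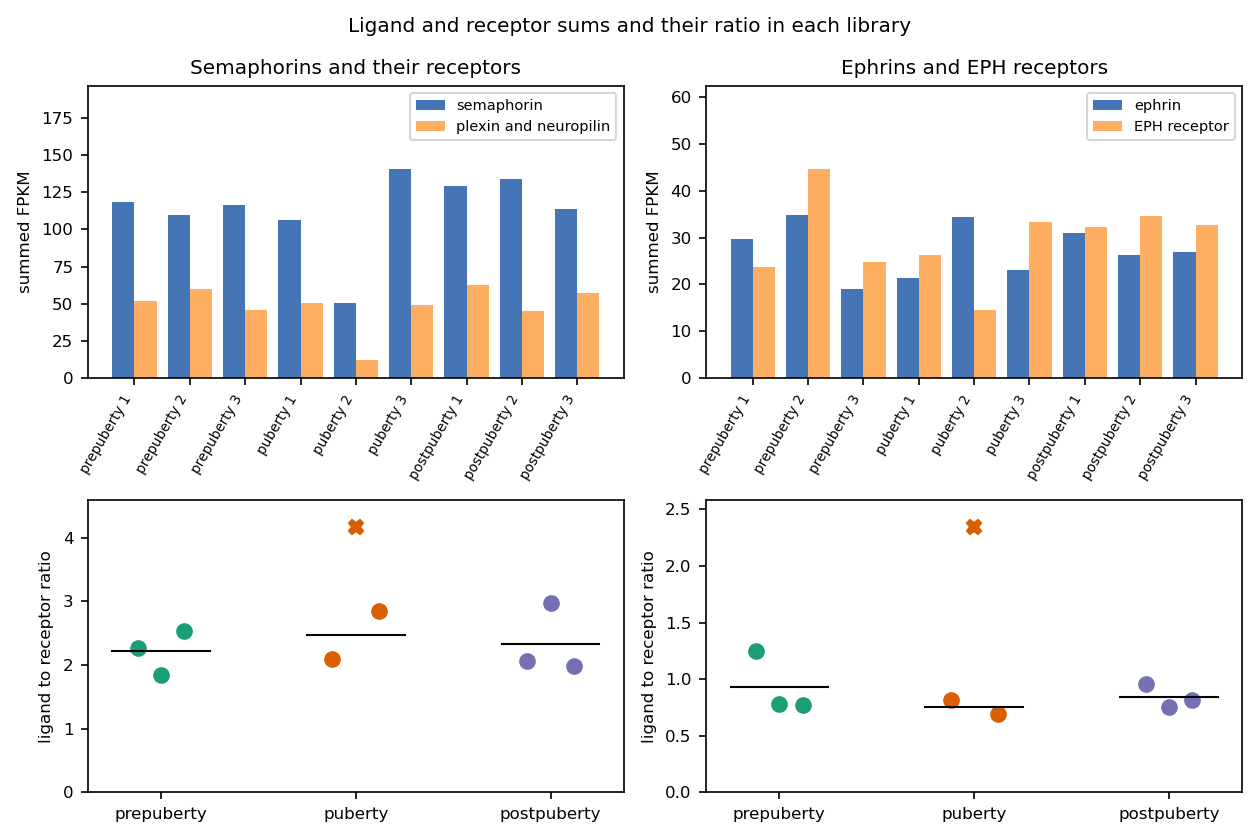
Summed FPKM of ligands (blue bars) and receptors (orange bars) in each library, and below them the ligand to receptor ratio by stage, with 1 point per library, a cross for puberty 2 and a black line for the mean without it. The semaphorin ratio lies between 1.84 and 2.97 in the 8 libraries and the ephrin ratio between 0.691 and 1.25, with the stages overlapping.

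Puberty 2 differed from the other libraries across the families. The sum over all 53 genes was 112 FPKM there and 205 to 255 elsewhere. It was the lowest library for 34 of the 50 tested members (68%), against 52.3% of all genes tested, and the highest for 5 members (10%), against 20.2%. In 37 of the 53 genes its value was under 0.5 of the mean of the others. It listed 7 genes at 0 (*SEMA4F*, *SEMA6B*, *PLXNA2*, *PLXNA3*, *NRP1*, *EFNA2* and *EPHA4*), whereas none of the 53 was at 0 in any other library. The 5 genes highest there were the ligands *EFNA1*, *EFNA4*, *SEMA4A* and *SEMA6C* and the receptor *EPHB3*. *SEMA6D*, with 0.0479 FPKM there and 5.82 to 9.16 elsewhere, and *PLXNB3*, with 0.0412 there and 1.39 to 6.62 elsewhere, stood among the furthest below the rest. Of 37 members with several transcripts, the one highest on average was also highest in 29 to 33 members in each of the 8 libraries but in 14 in puberty 2. No share over all genes was taken for the counts under 0.5, at 0 or by transcript. Those counts cannot be called particular to guidance genes, since puberty 2 listed 15577 genes above 0, against 17180 to 17763 elsewhere.

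**Figure D3:**
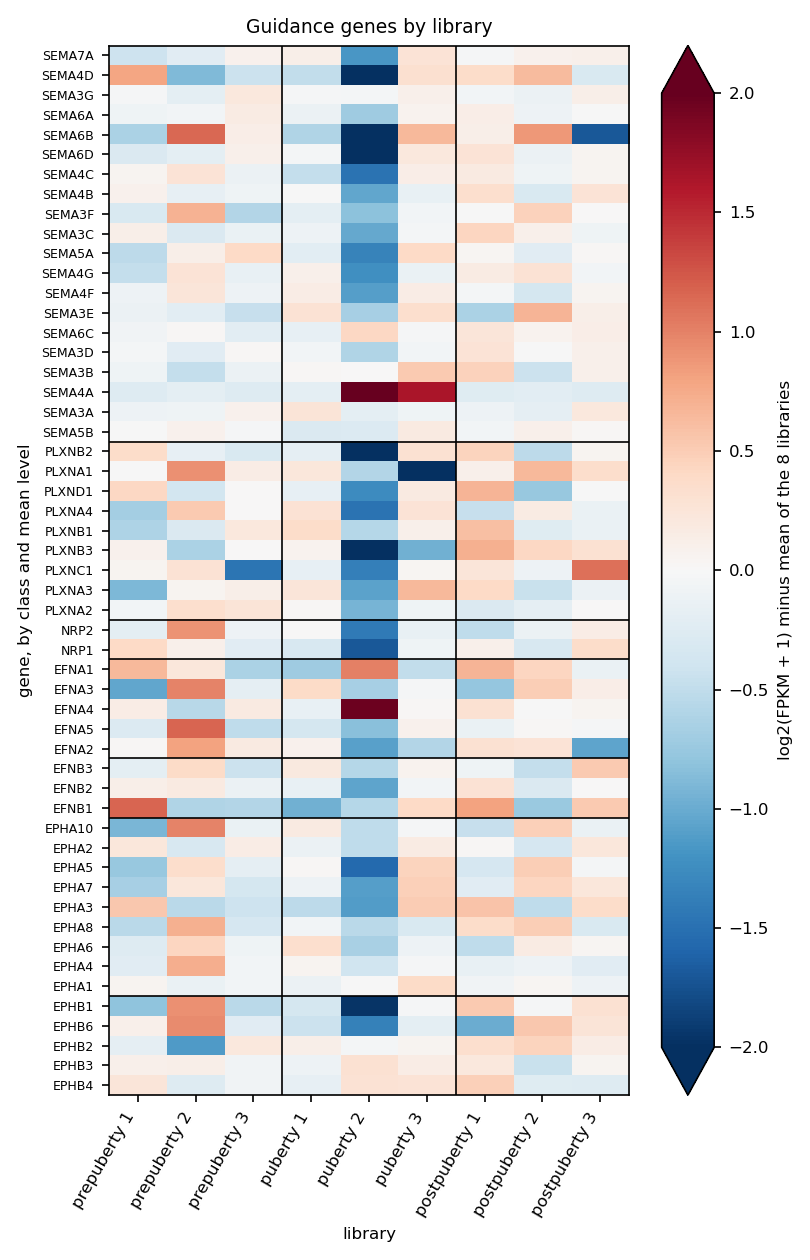
Guidance genes (rows, by class and mean level) in the 9 libraries (columns), coloured by log2(FPKM + 1) minus the mean of the 8 libraries other than puberty 2, with colours saturating at 2 log2 units. The puberty 2 column is blue for most genes, and the other columns of a stage differ among themselves.

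Stage differences were tested with limma on log2(FPKM + 1) over all 14238 genes whose mean reached 0.5 FPKM in at least 1 stage. This filter kept 50 of the 53 members, all but *SEMA3A*, *SEMA5B* and *EPHA1*. A gene counted as called when its log2 fold change was 1 or more in size and its Benjamini-Hochberg adjusted p lay below 0.05, and fold changes give the first-named stage minus the second. No guidance gene was called in any of the 3 comparisons, with or without puberty 2, and the share called among all genes was 0% in each. At an unadjusted limma p below 0.05 there was 1 member in puberty versus prepuberty (1.82% of all genes), 2 members in postpuberty versus puberty (2.14%) and 0 members in postpuberty versus prepuberty (0.815%). Without puberty 2 the numbers were 0 (1.66% of all genes), 1 (2.11%) and 0 (1.87%). Shares of this size among 50 members are near the background. An exact permutation test, two-sided, reaches no lower than p = 0.1 with 3 ewes a stage and no lower than p = 0.2 with 2 of them in puberty.

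The median over the members moved with single libraries and with the scaling. Their median log2 fold change was -0.26 in puberty versus prepuberty, 0.36 in postpuberty versus puberty and 0.05 in postpuberty versus prepuberty, beside -0.14, 0.19 and 0.05 for all tested genes. Without puberty 2 it was 0.03, -0.02 and 0.05, beside 0.02, 0.03 and 0.05. With all 9 libraries, 12 of 50 members were higher and 38 lower in puberty than in prepuberty, while 36.8% of all genes tested were higher. Without puberty 2, 28 members were higher and 22 lower, beside 55.3% of all genes higher. Quantile normalization with all 9 libraries gave 21 higher and 29 lower, beside 51.2% higher. With puberty 2 kept, leaving out prepuberty 2 gave 21 higher and 28 lower with a median of -0.10, beside 40.5% of all genes higher. Array weights gave 30 higher and 20 lower with a median of 0.06, beside 61.8% higher. Quantile normalization brought the median of all genes to 0.01 and -0.01 in the first 2 comparisons and left the members at -0.07 and 0.11. The range of stage means was smaller than the widest range within a stage in all 50 members over the 8 libraries, and in 95.9% of all genes tested. The medians for members were 0.29 log2 units between stages and 0.98 within a stage, beside 0.22 and 0.71 for all genes tested. Means vary less than single libraries do, so this comparison cannot show that members differed little between stages.

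**Figure D4:**
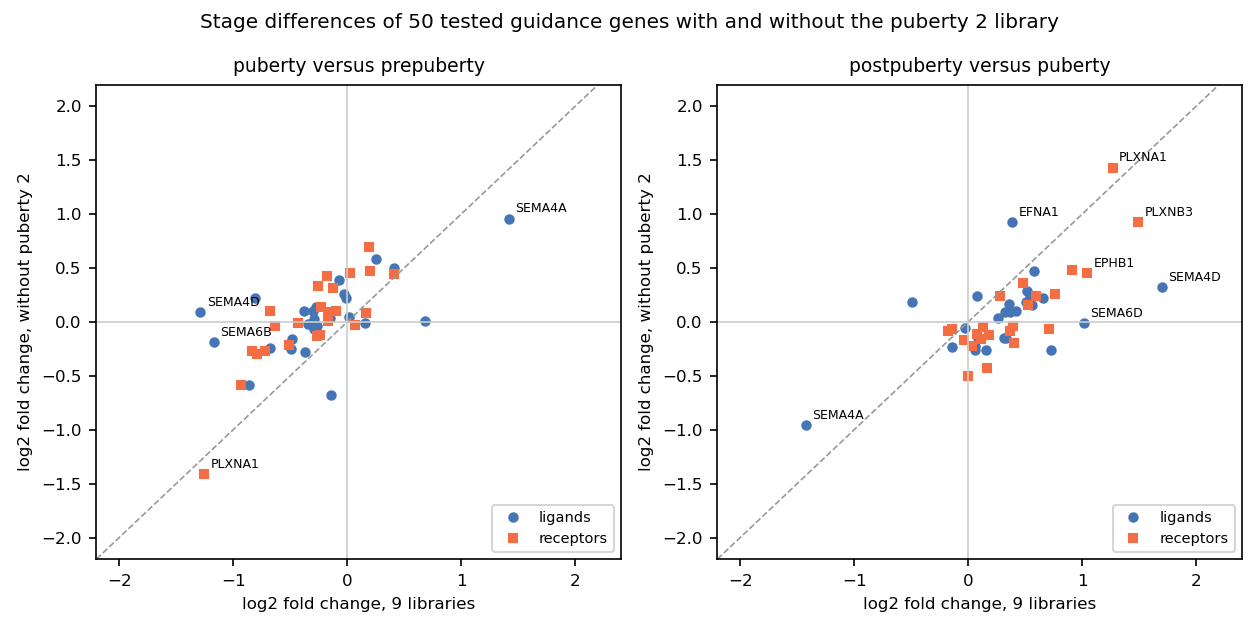
Log2 fold change of the 50 tested guidance genes with 9 libraries (horizontal) and without puberty 2 (vertical), for puberty versus prepuberty and postpuberty versus puberty, with ligands as blue circles, receptors as orange squares and equal values on the dashed line. Most points lie left of zero in the first panel and right of zero in the second but centre near zero vertically, and *SEMA4A* and *PLXNA1* stay away from zero on both axes in both panels, as *PLXNB3* does in the second.

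The members at an unadjusted p below 0.05 were *SEMA4A*, in both comparisons with puberty, and *PLXNB3*, in postpuberty versus puberty, the latter also without puberty 2. *SEMA4A* (chromosome 1, positions 106174276 to 106193637), a class 4 semaphorin known from immune cells and retina, had 0.0208, 0.0658 and 0.0283 FPKM at prepuberty, 0.0681, 4.24 and 2.80 at puberty and 0.0321, 0.0532 and 0.0199 at postpuberty. Puberty 2 and puberty 3 were the only libraries above 0.1, and puberty 1 lay barely above the highest of the others. Its log2 fold change was 1.42 in puberty versus prepuberty (SE 0.49, limma adjusted p = 0.838) and -1.42 in postpuberty versus puberty (SE 0.49, limma adjusted p = 0.780). Without puberty 2 these were 0.96 and -0.96, each with adjusted p = 1. *SEMA4A* passed the filter only through puberty, so it had to differ from the other stages in some measure. Puberty 3 also held 7630 FPKM of choroid plexus markers, of which *TTR* was 7594, against 9.71 to 729 in the other 7 libraries. Puberty 2 held 555. The 729 was in postpuberty 3, where *SEMA4A* was at its lowest of the 9 libraries (0.0199 FPKM). The part of choroid plexus cells in *SEMA4A* was not tested.

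*PLXNB3* (chromosome X, positions 80504885 to 80519609), a receptor of SEMA5A found mainly in oligodendrocytes, had 3.94, 2.0 and 3.67 FPKM at prepuberty, 3.86, 0.0412 and 1.39 at puberty and 6.62, 5.15 and 4.73 at postpuberty. Its stage means were 3.20 ± 1.05, 1.76 ± 1.94 and 5.5 ± 0.995 FPKM (SD, n = 3 each), and the puberty mean was 2.62 without puberty 2. All 3 postpuberty libraries lay above all 6 others, with and without puberty 2. The log2 fold change in postpuberty versus puberty was 1.49 (SE 0.51, limma adjusted p = 0.780), and 0.92 without puberty 2 (SE 0.35, limma adjusted p = 1). In postpuberty versus prepuberty it was 0.65 (SE 0.51, and 0.32 without puberty 2, limma adjusted p = 1 in both), and the value was 0.43 without prepuberty 2. The sum of 7 oligodendrocyte markers was 6616 to 14554 FPKM in postpuberty, 6416 to 14763 in prepuberty and 9548 to 11731 in puberty, so that it overlapped between all stages. The sum of 5 precursor markers overlapped as well, at 101 to 175, 87.8 to 134 and 88.7 to 138 FPKM.

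*PLXNA1* (chromosome 19, positions 60136443 to 60177200), a plexin that pairs with neuropilins and takes part in GnRH neuron migration, had 4.84, 10.1 and 5.54 FPKM at prepuberty, 5.91, 2.93 and 0.148 at puberty and 5.3, 8.21 and 6.5 at postpuberty. Puberty 3 and puberty 2 were the lowest of the 9 libraries, while puberty 1 lay inside the range of the other stages. The log2 fold change was -1.25 in puberty versus prepuberty (SE 0.59, limma adjusted p = 0.838) and 1.27 in postpuberty versus puberty (SE 0.59, limma adjusted p = 0.780). Without puberty 2 these were -1.42 and 1.43 (SE 0.69 each, limma adjusted p = 1 each). Both depended on single puberty libraries, at -0.53 and 0.54 without puberty 3 and at -1.82 and 1.84 without puberty 1. Most of the gene's level in 7 libraries came from XM_027957876.3, at 4.82 to 10.0 FPKM, and this transcript was listed at 0 in puberty 2 and puberty 3. In puberty 2 the level came from XM_042236468.2 instead, at 2.93 FPKM.

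*EPHB2* (chromosome 2, positions 243636310 to 243852094), a receptor of excitatory synapses, had 2.08, 0.593 and 3.07 FPKM at prepuberty, 2.78, 2.41 and 2.62 at puberty and 3.44, 3.77 and 2.89 at postpuberty. The postpuberty libraries lay above all puberty ones, and postpuberty 3 lay below prepuberty 3. Its log2 fold change in postpuberty versus prepuberty was 0.68 (SE 0.34, limma adjusted p = 1), and it was 0.30 without prepuberty 2, the lowest library, and 0.18 with array weights. The *EPHB2* value was 0.97 without prepuberty 3 and 1.03 with a pseudocount of 0.1. The sign of *SEMA7A* changed with the libraries kept and with the scaling. Its log2 fold change in puberty versus prepuberty was -0.07 with all libraries and 0.38 without puberty 2 (SE 0.18, limma adjusted p = 1), where both puberty libraries lay above all prepuberty ones. It was 0.06 without prepuberty 3 and 0.13 with array weights. *EFNA1* in postpuberty versus puberty went from 0.38 (SE 0.51) to 0.92 without puberty 2 (SE 0.39, limma adjusted p = 1). It was 0.06 without puberty 1, 0.17 without puberty 3, 0.20 without postpuberty 1 and 0.61 without postpuberty 3. None of these passed the adjusted threshold.

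*PLXNC1* and *EFNA2* had p values among the 3 smallest of the members in a comparison with all 9 libraries, and *PLXNA2* only without puberty 2. *PLXNC1* had a log2 fold change of 0.79 in postpuberty versus prepuberty (SE 0.56, limma adjusted p = 1), which was 0.25 without prepuberty 3 and 0.45 without postpuberty 3. It was larger with array weights and with a pseudocount of 0.1, as given in the last section. *EFNA2* had -0.86 in puberty versus prepuberty (SE 0.44, limma adjusted p = 0.838), and -0.59 without puberty 2. It was -0.40 with array weights and -2.08 with a pseudocount of 0.1. *PLXNA2* had -0.34 in postpuberty versus prepuberty, with an SE of 0.28 with all 9 libraries and 0.17 without puberty 2 (limma adjusted p = 1 in both). The log2 fold changes of the 4 semaphorins with a mean of at least 10 FPKM in postpuberty versus prepuberty were 0.24 for *SEMA7A* (SE 0.37, and 0.16 without puberty 2), -0.01 for *SEMA3G* (SE 0.21, and 0.15 without puberty 2), 0.00 for *SEMA6A* (SE 0.26, and 0.14 without it) and 0.41 for *SEMA4D* (SE 1.02, and 0.47 without it). Leaving out 1 library at a time gave 0.06 (without prepuberty 2) to 0.90 (without prepuberty 1) for *SEMA4D*, 0.12 (without prepuberty 1) to 0.37 (without prepuberty 3) for *SEMA7A*, -0.11 to 0.10 for *SEMA3G* and -0.06 to 0.08 for *SEMA6A*.

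**Figure D5:**
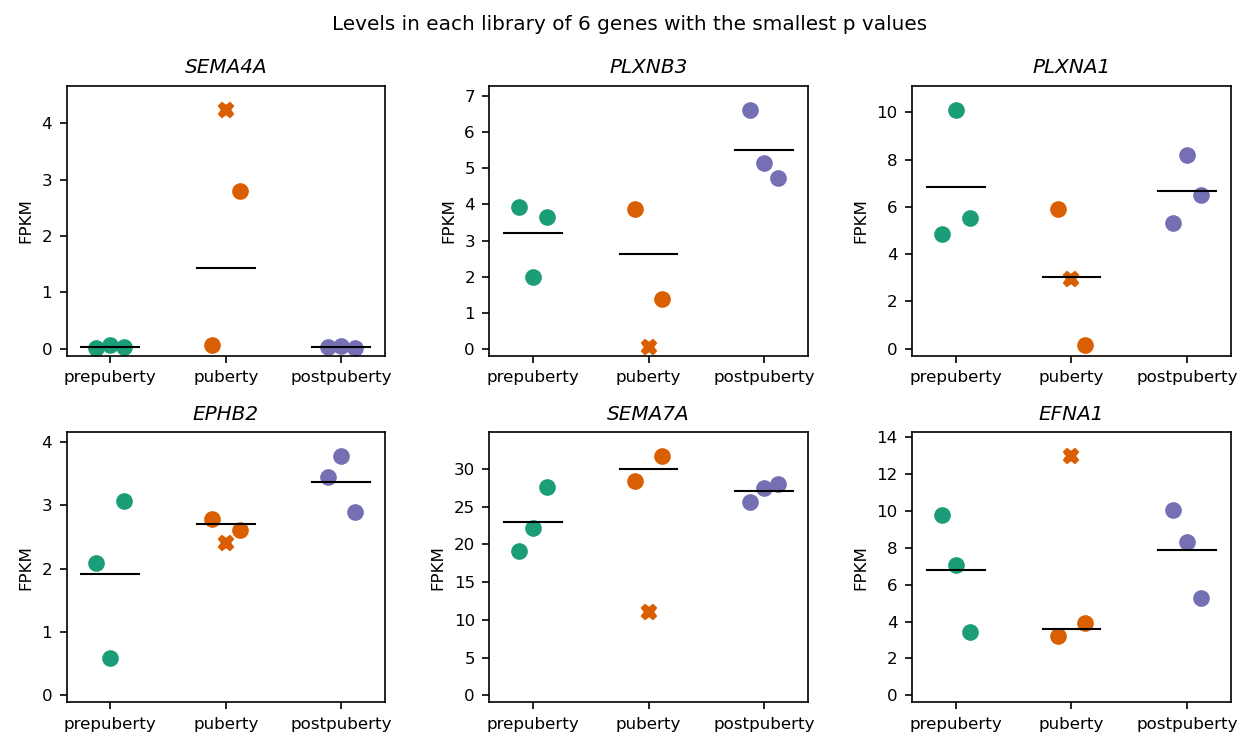
FPKM in each library of 6 genes with the smallest p values, with 1 point per library by stage, a cross for puberty 2 and a black line for the mean without it. *PLXNB3* is higher in all 3 postpuberty libraries than in the others, and *SEMA4A* is above 0.1 FPKM in 2 puberty libraries only.

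Complete separation of libraries was counted as well. With all 9 libraries, 2 of 50 members (4%) did not overlap between puberty and prepuberty, beside 5.16% of all genes, 5 (10%) between postpuberty and puberty, beside 7.32%, and 2 (4%) between postpuberty and prepuberty, beside 4.57%. The members higher in puberty than in prepuberty were *SEMA3B* and *SEMA4A*, the latter by only 0.0681 FPKM in puberty 1 against 0.0658 in prepuberty 2. Those higher in postpuberty than in puberty were *SEMA3D*, *SEMA3F*, *PLXNB3* and *EPHB2*, with *SEMA4A* lower, and those higher in postpuberty than in prepuberty were *SEMA6C* and *PLXNB3*. Without puberty 2 the counts were 5 (10%) between puberty and prepuberty, beside 11.7%, and 11 (22%) between postpuberty and puberty, beside 14% of all genes. The 5 were *SEMA3B*, *SEMA3E*, *SEMA4A*, *SEMA7A* and *PLXNA3*, all higher in puberty. Of the 11, the 6 higher in postpuberty were *EFNA1*, *SEMA3D*, *SEMA3F*, *SEMA6C*, *PLXNB3* and *EPHB2*, and the 5 lower were *SEMA4A*, *SEMA4F*, *SEMA7A*, *PLXNA4* and, by its mRNAs, *EPHA4*. *SEMA4A* passed the filter only through puberty, so its places in these counts lend no support to a stage difference. *EPHA4* passed only through prepuberty and was under 0.5 FPKM in every puberty and postpuberty library. The sets counted with all 9 libraries were near or below the background, and no test was made of the difference in the last count. Some of these names, such as *SEMA3B*, *SEMA3D*, *SEMA6C*, *SEMA4F* and *PLXNA3*, like *SEMA6B*, *SEMA6D* and *EPHB3* above and *SEMA3C*, *EPHA3* and *EPHA6* below, were chosen after their values were seen.

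Ordering the 8 libraries gave another grouping of members. In 6 of 50 members (12%), *EFNA3*, *EPHA5*, *EPHA6*, *EPHA10*, *NRP2* and *PLXNA4*, the 2 libraries lowest in neuron markers were the 2 lowest, beside 10.6% of all genes. In 6 others (12%), *EFNA1*, *EFNB1*, *EPHA3*, *PLXNB2*, *PLXND1* and *SEMA3C*, the same libraries were the 2 highest, beside 9.98% of all genes. These shares are near the background, and the pattern is not particular to guidance genes. Puberty 2, which had the least neuron marker RNA of all 9 libraries, was left out of this ordering.

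Other genes of the guidance pathways were read in the same fits. Of 22 netrin, slit and repulsive guidance genes 19 were tested, as were all 27 semaphorin partners and effectors and all 18 ephrin partners and effectors, and 0 were called in either direction in the 3 comparisons, with or without puberty 2. At an unadjusted limma p below 0.05 with all 9 libraries, 1 of 18 ephrin partners was lower in puberty versus prepuberty, beside 1.82% of all genes. Another of the 18 was higher in postpuberty versus puberty, beside 2.14% of all genes. Of 27 semaphorin partners, 1 was lower in postpuberty versus prepuberty, beside 0.815% of all genes. The first was *KALRN*, a signalling protein of dendritic spines, with a log2 fold change of -0.71 (SE 0.29, limma adjusted p = 0.838). The second was *VAV3*, an exchange factor recruited by EPH receptors, with 0.66 (SE 0.28, limma adjusted p = 0.780), and the third was *ARHGEF11*, the exchange factor bound by B-type plexins, with -1.09 (SE 0.38, limma adjusted p = 1). *ARHGEF11* had 5.33, 7.83 and 5.45 FPKM at prepuberty, 2.05, 3.41 and 5.49 at puberty and 4.14, 1.73 and 1.64 at postpuberty, so that all prepuberty libraries lay above all postpuberty ones. Neither *KALRN* nor *VAV3* was at this level without puberty 2, where the values were -0.46 (SE 0.23) and 0.42 (SE 0.21), each with limma adjusted p = 1. In puberty 2 *KALRN* was at 0.194 FPKM against 0.760 to 2.48 elsewhere, and *VAV3* at 0.447 against 1.11 to 2.58. Without that library *ARHGEF11* was again the only semaphorin partner in that comparison at this level, and *MICAL3*, an actin-oxidizing effector (0.58, SE 0.23, limma adjusted p = 1), and *SLIT2*, a ligand of ROBO receptors (-0.91, SE 0.30, limma adjusted p = 1), were at this level in postpuberty versus puberty. Without puberty 2, 1.87% of all genes were at this level in postpuberty versus prepuberty and 2.11% in postpuberty versus puberty. No difference between the lists and the shares of all genes was tested. *KALRN*, *VAV3*, *ARHGEF11*, *MICAL3* and *SLIT2* were named for their p values.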

How the data were processed

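The authors selected mRNA with poly-T beads, sequenced it in pairs, trimmed the reads with Trimmomatic, aligned them with HISAT2 to the RefSeq sheep assembly ARS-UI_Ramb_v3.0, and built a merged transcript set in StringTie. The deposited table gives FPKM for 115108 transcripts in 9 libraries, although its name speaks of raw counts: the values are not whole numbers, and limma was used in place of a count test. Read depth is not given by FPKM, so the precision of a value is judged from the spread of the 3 ewes of its stage.

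RefSeq mRNA rows (76684, of which 76682 matched a gene by accession) were summed per gene. Newly assembled transcripts carry no gene symbol and stay out of the sums, as do noncoding RefSeq rows. Groups and replicate numbers came from the sample labels, and ages from the study's animal table. limma 3.58.1 in R 4.3.3 (trend, 3 stages in 1 fit) was run on log2(FPKM + 1) for genes with a stage mean of at least 0.5 FPKM, with Benjamini-Hochberg adjustment over all genes tested. The fit was run on simulated data with independent noise in each library and shifts in the more expressed genes only. No simulated library was unlike the rest as puberty replicate 2 was. The simulation therefore cannot show how many differences would be missed in these data. Summaries and figures used Python 3.11.15, numpy 2.4.6, pandas 2.3.3 and matplotlib 3.10.9. The fit without puberty replicate 2 leaves 2 puberty libraries that share 1 estimate of spread with the other stages.

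Values in every library are given for 34 genes: the 3 highest of each class, the 3 with the smallest p in each comparison and fit, and genes with known roles in GnRH neurons, the median eminence, vessels or myelin. The other 19 are given by counts and ranges. The members and lists were chosen with earlier results of these data known. Alternatives were other scalings, pseudocounts, filters and weights, leaving out each library, a replicate block, and single transcripts, and added after the values were seen were scalings without puberty replicate 2 and the noncoding rows. The orderings by neuron and leptomeningeal markers were also chosen after the values were seen. No sequence is given, since none of the files used here holds one.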

Additional observations from a re-analysis of the deposited data

Results flagged for a closer look

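Transcripts that RefSeq annotates as noncoding at 2 of the genes carried signal that the mRNA sums do not use. At *EPHA4* one such transcript had a mean of 6.03 FPKM over the 8 libraries other than puberty replicate 2, against 0.343 for the mRNAs. At *SEMA4G* one had 1.57 FPKM, against 1.67 for the mRNA. A single library far from the rest of its stage was not tested for, because each stage has 3 libraries. Puberty replicate 2 was set apart by its values over all genes.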

How the results depend on the processing

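No guidance gene was called in any comparison under the 18 alternatives planned or the 3 added after the data were seen. Beside the 0 calls, between 0 and 6 members had an unadjusted limma p below 0.05 under an alternative. The 6 were 6 of 50 members with array weights in postpuberty versus prepuberty, beside 1244 of 14238 genes, and 6 of 85 single transcripts of members in puberty versus prepuberty, beside 858 of 27674. With array weights 4 genes that are no members were called in puberty versus prepuberty and 1 in postpuberty versus puberty. The fit with a replicate block gave 0 members called in each comparison, as did the fit without it. Deviations from the stage means over the genes tested were correlated between same-numbered libraries. The correlation ranged from -0.31 to 0.51 and was over 0.1 in 2 of 9 pairs, and 3 of 9 libraries correlated best with their own number. Between prepuberty and postpuberty it was 0.25, 0.51 and -0.08 for replicates 1, 2 and 3. The pairs with puberty depend on a stage mean that includes puberty replicate 2. These values therefore cannot show whether same-numbered libraries deviated together. Of 12 log2 fold changes followed in 9 genes, 1 changed sign, that of *SEMA7A* in puberty versus prepuberty (-0.07). It was 0.13 with array weights, 0.0099 with quantile normalization, 0.0074 with upper-quartile scaling, and 0.39 and 0.37 with these scalings without puberty replicate 2. Leaving out 1 library at a time gave -0.34 to 0.38, with positive values without puberty replicate 2 (0.38) and without prepuberty replicate 3 (0.06). The cause was not tested. A pseudocount of 0.1 in place of 1 kept each sign and raised several sizes, to -2.08 for *EFNA2* in puberty versus prepuberty, -1.99 and 2.01 for *PLXNA1*, 3.23 and -3.26 for *SEMA4A*, 2.56 for *PLXNB3* in postpuberty versus puberty, and 1.03 for *EPHB2*, 1.47 for *PLXNC1* and -0.64 for *PLXNA2* in postpuberty versus prepuberty. Array weights gave -0.40 for *EFNA2*, 0.82 for *EFNA1*, 0.80 and -0.80 for *SEMA4A*, 0.80 for *PLXNB3* in postpuberty versus puberty, 0.18 for *EPHB2* and 1.78 for *PLXNC1*. The semaphorin to receptor ratio averaged over 9 libraries (2.53) lay between 2.32 and 2.73, and the ephrin to EPH ratio (1.02) between 0.85 and 1.06. Single transcripts were counted but not followed for named genes. The FPKM table holds no counts, so no counting interval is given for low genes such as *SEMA3A*.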
